A study of Mus musculus with 36 samples.

Results

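The endoderm lineage genes described here are 9 genes of the primitive and definitive endoderm, Gata4, Gata6, Sox17, Sox7, Foxa2, Hnf4a, Dab2, Cubn and Afp. They were taken by symbol from a count table of 51734 genes, and all 9 were found and passed the filter on low counts, as did 20511 genes in all. Of 36 samples in the series, 18 were used, in 6 groups of 3 libraries. The libraries were made by mRNA sequencing from E14 cells, a mouse embryonic stem cell (ESC) line, and from the neural precursor cells (NPC) that retinoic acid turns them into. The study asked how transcription depends on MLL2 and on the enzymatic activity of MLL3 and MLL4. The genotypes were wild type (WT), dCD, in which MLL3 and MLL4 carry no methyltransferase activity, and MLL2dTAG, in which MLL2 carries a degron that the compound dTAG-13 directs to degradation. The labels list dTAG-13 at 2 µM for every one of these libraries, WT and dCD and both stages included, with addition from day 1 of differentiation and harvest on day 4 for NPC. The sources used here give no exposure time for ESC. Each genotype is a cell line of its own, so the edit and other differences between lines cannot be told apart. The labels do not say whether replicates were separate cultures, so the p-values measure the spread between these libraries, which may be technical.

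The mouse embryo makes endoderm by separate routes. Primitive endoderm arises in the blastocyst beside the pluripotent epiblast and gives rise to parietal endoderm, which lays down basement membrane, and to visceral endoderm, which takes up and secretes nutrients and serum proteins. Definitive endoderm arises at gastrulation and forms the gut tube and its organs. GATA4 and GATA6 are zinc finger transcription factors at the top of the primitive endoderm programme, and GATA6 opposes NANOG in that choice. SOX17 and SOX7 are closely related SOX F factors, FOXA2 and HNF4A are factors of gut tube, liver and visceral endoderm, DAB2 and cubilin serve endocytosis in visceral endoderm, and alpha-fetoprotein (Afp) is its secreted product. Several of these genes also work elsewhere: Gata4 and Gata6 in heart, Sox7 and Sox17 in endothelium, Foxa2 in notochord and floor plate, and Dab2 and Cubn in kidney. MLL2 deposits H3K4 methylation mainly at CpG-rich promoters, and MLL3 and MLL4 mainly at enhancers.

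RefSeq promoter windows of 300 bases (250 before to 50 after a start, GRCm38.p6) were matched by symbol for 5 of the 9 genes, Foxa2, Hnf4a, Dab2, Cubn and Afp, in 9 windows. The 4 windows printed here belong to the 3 genes among these with the widest differences between dCD and MLL2dTAG in NPC, the regulator Hnf4a (with 2 starts), the receptor gene Cubn and the product gene Afp. Both strands were searched for short words of 3 factor families. The word AGATAA was taken for the GATA family. Also taken for this family was the word AGATAG. The same was done with a T in front, which gives TGATAA as a further word. The last word searched for the GATA family was TGATAG. The FOXA family was given the word TGTTTAC for its core. It was also given TATTTAC as a variant of that core. Its remaining variant was TGTTTGC in this search. HNF4A and its relatives were given CAAAGT as their single word. Capitals mark matches, and the windows run 5′ to 3′ on the gene's strand.
Afp, chr5:90490464-90490763, plus strand: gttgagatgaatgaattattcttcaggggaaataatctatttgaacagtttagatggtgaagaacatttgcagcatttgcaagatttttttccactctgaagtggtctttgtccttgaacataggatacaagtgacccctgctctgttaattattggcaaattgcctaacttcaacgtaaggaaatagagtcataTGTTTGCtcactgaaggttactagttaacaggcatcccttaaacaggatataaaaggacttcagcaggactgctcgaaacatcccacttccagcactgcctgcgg
Cubn, chr2:13491827-13492126, minus strand: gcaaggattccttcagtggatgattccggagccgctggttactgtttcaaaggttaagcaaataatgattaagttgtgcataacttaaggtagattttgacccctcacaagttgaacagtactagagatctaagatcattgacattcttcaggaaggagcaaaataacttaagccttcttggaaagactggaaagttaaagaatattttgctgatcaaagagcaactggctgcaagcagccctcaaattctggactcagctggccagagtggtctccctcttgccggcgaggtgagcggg
Hnf4a start 1, chr2:163506607-163506906, plus strand: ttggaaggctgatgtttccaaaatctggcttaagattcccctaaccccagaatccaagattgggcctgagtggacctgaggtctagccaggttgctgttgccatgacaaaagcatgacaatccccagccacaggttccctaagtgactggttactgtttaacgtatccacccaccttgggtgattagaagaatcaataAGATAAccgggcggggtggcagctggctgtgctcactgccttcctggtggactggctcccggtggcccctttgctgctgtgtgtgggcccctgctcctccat
Hnf4a start 2, chr2:163546905-163547204, plus strand: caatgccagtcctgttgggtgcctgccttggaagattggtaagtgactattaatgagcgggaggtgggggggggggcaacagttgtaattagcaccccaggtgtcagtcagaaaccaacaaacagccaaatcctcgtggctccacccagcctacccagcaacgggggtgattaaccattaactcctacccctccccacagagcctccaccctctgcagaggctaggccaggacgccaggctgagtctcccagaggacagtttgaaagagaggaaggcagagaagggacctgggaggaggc
The Afp window held TGTTTGC with its first base at −55. The first Hnf4a window held AGATAA at −52. No searched word was found in the second Hnf4a window or in the Cubn window. Among the windows not printed, the first of Dab2 held TGATAA at −179, AGATAA on the other strand at 14 and CAAAGT at −237. The third of Foxa2 held AGATAA at −183 and CAAAGT on the other strand at −172. The remaining windows of Dab2 and Foxa2 held no searched word. Among 32851 RefSeq windows, 29.8% held a GATA word, 11.2% a FOXA word and 14.4% the HNF4 word, and matches are descriptions of letters. The printed windows held 3 CpG (Afp), 5 (Cubn) and 4 (each Hnf4a start), against a median of 7 over all windows. Of the windows not printed, 1 of Dab2 held 2 CpG and the other 19, and those of Foxa2 held 12, 23 and 13, above that median.

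Libraries held 19430860 to 46041277 counts. Between replicates of a group the chi-square of counts per degree of freedom was 2.19 to 10.5. No 2 replicates of a group held identical counts. Both mates of a read pair may have been counted, which raises the chi-square, so it cannot tell whether a library was sequenced again. The highest values, 8.38 and 10.5, were for the pairs with ESC WT replicate 2. Without that library the members called were 5 for dCD against WT in ESC, 6 for MLL2dTAG against WT in ESC and 8 for WT NPC against WT ESC, beside 5, 5 and 8 with it. The stage labels were checked on markers in WT. Of the neural progenitor genes, 5 of 6 were called higher in NPC than in ESC, against 39.1% of all genes tested. Of the pluripotency genes, 6 of 6 were called lower, against 40.4%. A catalytic edit or a degron acts on the protein, so mRNA counts of the targeted genes check neither genotype label.

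In WT most of the endoderm genes were higher in NPC than in ESC. Levels are given as CPM (reads of a gene divided by the TMM-scaled size of its library, in the customary unit), and levels of different genes are compared as CPM per kb of exon. By this measure the order in ESC WT was Dab2 (6.16 ± 0.060 CPM per kb, SD, n = 3), Cubn (4.03 ± 0.24), Gata4 (2.34 ± 0.097), Hnf4a (1.31 ± 0.093), Sox7 (0.574 ± 0.14), Foxa2 (0.531 ± 0.11), Gata6 (0.507 ± 0.11), Sox17 (0.175 ± 0.023) and Afp (0.0278 ± 0.032). The libraries of Sox7 and Foxa2, and those of Foxa2 and Gata6, overlapped in level, and the other neighbours did not. In NPC WT Gata6 had moved from the seventh to the second place (19.6 ± 0.47 CPM per kb), behind Dab2 (27.8 ± 0.57) and ahead of Gata4 (16 ± 0.17). Cubn (4.21 ± 0.065) and Foxa2 (4.06 ± 0.44) overlapped, and Sox7 (2.29), Sox17 (1.28), Hnf4a (0.727) and Afp (0.253) followed without overlap between neighbours. In NPC dCD Gata6 led (20.1 ± 0.51), followed by Dab2 (15.4 ± 0.67) and Gata4 (9.26 ± 0.48). In NPC MLL2dTAG Gata4 led (64.8 ± 0.96), followed by Dab2 (40.4 ± 0.79) and Gata6 (33.7 ± 0.32).

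**Figure D1:**
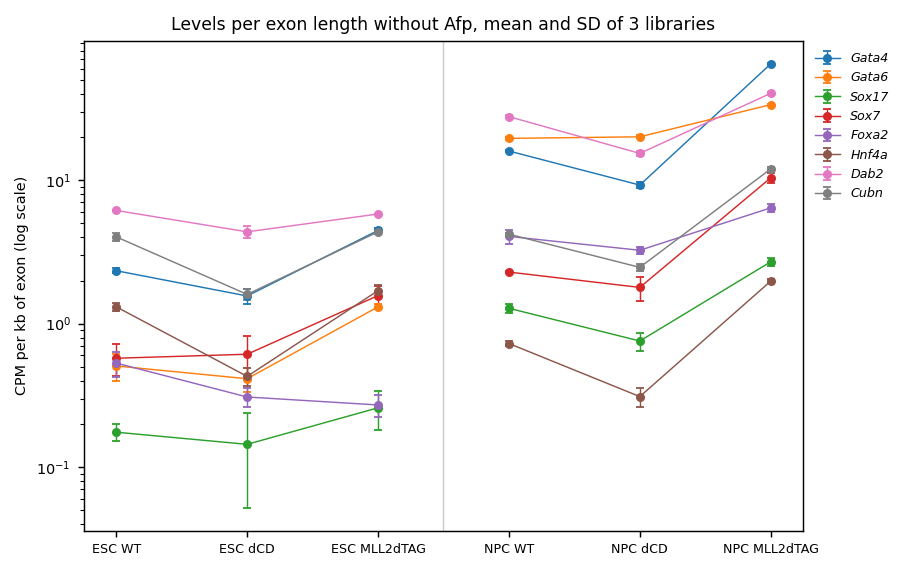
Mean level in CPM per kb of exon (log axis) of 8 of the 9 genes in the 6 groups, with the SD of 3 libraries as bars; lines only join a gene's points, and Afp, with libraries at 0 counts in ESC, is left out. Gata4 reached 64.8 CPM per kb in NPC MLL2dTAG, above Dab2 at 40.4, whereas in NPC WT it stood at 16, below Dab2 and Gata6.

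Of the GATA factors, Gata4 followed genotype at both stages and Gata6 differed mainly in MLL2dTAG. Gata4 stood at 9.16, 9.49 and 8.74 CPM in the WT ESC libraries, at 5.72, 6.88 and 5.63 in dCD ESC and at 16.7, 17.5 and 18.1 in MLL2dTAG ESC. In NPC it stood at 63.4, 62.5 and 62.1 CPM in WT, at 38.2, 34.5 and 35.7 in dCD and at 249, 254 and 256 in MLL2dTAG. At each stage the dCD libraries were lowest and the MLL2dTAG libraries highest, with no overlap between genotypes. In dCD, Gata4 fell by 0.59 on the log2 scale in ESC (standard error, SE, 0.087, adjusted p = 5.72e-07) and by 0.79 in NPC (SE 0.046, adjusted p = 7.41e-17). In MLL2dTAG it was higher by 0.94 in ESC (SE 0.068, adjusted p = 3.2e-14) and by 2.01 in NPC (SE 0.042, adjusted p = 7.63e-30), which is 4.04-fold. All adjusted p here are from the edgeR quasi-likelihood test with Benjamini-Hochberg adjustment over 20511 genes, and a gene was called at an adjusted p under 0.05.

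Gata6 stood at 3.03, 4.11 and 2.75 CPM in WT ESC, at 2.90, 2.11 and 3.06 in dCD ESC and at 8.28, 8.44 and 8.93 in MLL2dTAG ESC. The WT and dCD libraries overlapped, and the MLL2dTAG libraries lay above both. The NPC libraries held it at 131, 127 and 125 CPM in WT, at 132, 133 and 127 in dCD and at 217, 221 and 219 in MLL2dTAG. Again WT and dCD overlapped, and MLL2dTAG lay above both. The change in dCD was −0.31 in ESC (SE 0.14, adjusted p = 0.0732) and 0.04 in NPC (SE 0.044, adjusted p = 0.472), neither of them called. The ESC change was called when replicate 3 of ESC WT (adjusted p = 0.0131) or of ESC dCD (adjusted p = 0.0376) was left out. In MLL2dTAG Gata6 was higher by 1.36 in ESC (SE 0.11, adjusted p = 1.62e-13) and by 0.78 in NPC (SE 0.044, adjusted p = 1.41e-17). A transcript on the opposite strand, 1010001N08Rik, overlaps Gata6 and held 3389 counts over the 18 libraries beside 53912 of Gata6. Whether counting used strand is not stated in the sources at hand, so reads of the overlap cannot be told apart.

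The balance of the GATA pair differed between groups. Per kb of exon, Gata4 was in ESC 4.72 ± 0.77 times Gata6 for WT, 3.93 ± 1.3 for dCD and 3.41 ± 0.050 for MLL2dTAG (SD, n = 3). The ESC ranges were 3.84 to 5.29, 3.07 to 5.43 and 3.37 to 3.46. Those of dCD and WT thus overlapped, and that of MLL2dTAG lay within that of dCD. In NPC the ratio was 0.82 ± 0.011 in WT, 0.46 ± 0.025 in dCD and 1.92 ± 0.018 in MLL2dTAG. The NPC ranges were 0.808 to 0.829, 0.432 to 0.481 and 1.91 to 1.94, and did not overlap. Gata6 mRNA thus exceeded Gata4 mRNA per length in WT and dCD NPC but not in MLL2dTAG NPC. Gata5, the third GATA factor of endoderm and heart, was at 14.9 CPM in NPC WT, fell in dCD (log2 change −0.94, SE 0.12, adjusted p = 1.18e-08) and was at 15.1 in MLL2dTAG (0.02, SE 0.11, adjusted p = 0.907). Gata2, a factor of blood and of trophoblast, fell in NPC of both lines, by 1.43 in dCD (SE 0.041, adjusted p = 1.76e-25) and by 1.77 in MLL2dTAG (SE 0.042, adjusted p = 2.34e-28). The cofactor gene Zfpm2, whose product binds GATA4, fell by 0.35 in NPC dCD (SE 0.084, adjusted p = 0.00062) and rose by 1.11 in NPC MLL2dTAG (SE 0.079, adjusted p = 9.91e-15).

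Of the SOX F factors, Sox7 gained most in MLL2dTAG. Sox7 stood at 1.38, 2.32 and 1.97 CPM in WT ESC, at 1.28, 2.65 and 2.13 in dCD ESC and at 4.32, 6.09 and 5.12 in MLL2dTAG ESC. In NPC it stood at 7.53, 7.46 and 7.71 CPM in WT, at 4.82, 5.85 and 7.07 in dCD and at 31.4, 36.1 and 35.4 in MLL2dTAG. The MLL2dTAG libraries lay above all others of their stage, and dCD overlapped WT in ESC but not in NPC. In MLL2dTAG Sox7 was higher by 1.41 in ESC (SE 0.18, adjusted p = 3.11e-08) and by 2.18 in NPC (SE 0.11, adjusted p = 1.67e-18), which is 4.53-fold. In dCD its change was 0.05 in ESC (SE 0.23, adjusted p = 0.881). In NPC dCD it fell by 0.35 (SE 0.13, adjusted p = 0.0238). That call was lost without NPC WT replicate 3 (adjusted p = 0.0591), without NPC dCD replicate 1 (−0.23, adjusted p = 0.178) or without NPC dCD replicate 2 (adjusted p = 0.0618).

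Sox17 was the lower of the pair in every group by mean level per kb. It stood at 0.958, 0.796 and 0.748 CPM in WT ESC, at 1.20, 0.414 and 0.447 in dCD ESC and at 0.806, 1.49 and 1.41 in MLL2dTAG ESC, and these groups overlapped. These ESC values rest on 10 to 54 counts per library. In the NPC libraries its level was 6.55, 5.67 and 6.09 CPM in WT, 3.44, 3.20 and 4.19 in dCD and 12.5, 13.8 and 12.3 in MLL2dTAG, without overlap. In NPC it fell by 0.76 in dCD (SE 0.16, adjusted p = 1.06e-04) and was higher by 1.08 in MLL2dTAG (SE 0.14, adjusted p = 2.26e-08). In ESC its change was −0.28 in dCD (SE 0.34, adjusted p = 0.524) and 0.62 in MLL2dTAG (SE 0.28, adjusted p = 0.0561). The second of these was called without a filter (adjusted p = 0.034), by DESeq2 (adjusted p = 0.0269) or without ESC MLL2dTAG replicate 1 (adjusted p = 0.0127). The first was called without ESC dCD replicate 1 (−0.92, adjusted p = 0.0406). Per kb, Sox7 was in NPC 1.8 ± 0.12 times Sox17 for WT, 2.37 ± 0.31 for dCD and 3.86 ± 0.26 for MLL2dTAG (SD, n = 3), with ranges of 1.66 to 1.9, 2.03 to 2.64 and 3.64 to 4.14. Sox18, the remaining SOX F gene and one of blood and lymph vessels, was in NPC at 0.127 CPM for WT, 0.294 for dCD and 0.0863 for MLL2dTAG, and was not called (adjusted p = 0.155 and 0.603).

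Foxa2 was lower in MLL2dTAG ESC than in WT ESC but higher in MLL2dTAG NPC than in WT NPC. It stood at 1.49, 0.995 and 1.29 CPM in WT ESC, at 0.854, 0.663 and 0.671 in dCD ESC and at 0.513, 0.683 and 0.731 in MLL2dTAG ESC, with WT above both lines. In NPC it stood at 9.62, 10.7 and 8.57 CPM in WT, at 8.10, 7.23 and 7.80 in dCD and at 14.1, 16.2 and 15.4 in MLL2dTAG, without overlap. In ESC Foxa2 fell by 0.76 in dCD (SE 0.25, adjusted p = 0.0121) and by 0.91 in MLL2dTAG (SE 0.24, adjusted p = 0.00151), on 14 to 38 counts per library. The dCD call in ESC was lost when the fit held only the groups compared (adjusted p = 0.0543) or lacked ESC WT replicate 1 (adjusted p = 0.0503). In NPC it fell by 0.32 in dCD (SE 0.11, adjusted p = 0.0109) and was higher by 0.66 in MLL2dTAG (SE 0.10, adjusted p = 5.1e-07). The dCD call in NPC was lost without NPC WT replicate 2 (adjusted p = 0.102) or without NPC dCD replicate 2 (adjusted p = 0.0572). The related pioneer factor gene Foxa1 rose in NPC of both lines, by 1.55 in dCD (SE 0.076, adjusted p = 8.63e-19) and by 0.74 in MLL2dTAG (SE 0.078, adjusted p = 2.88e-10). Foxa3, at 0.592 CPM in NPC WT, was not called in either line (adjusted p = 0.11 and 0.573).

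Hnf4a, a nuclear receptor of liver, gut and visceral endoderm, had the largest reduction of the 9 genes in dCD by fitted log2 change at both stages. It stood at 5.91, 6.80 and 6.29 CPM in WT ESC, at 1.84, 1.99 and 2.39 in dCD ESC and at 7.25, 8.57 and 8.75 in MLL2dTAG ESC. The NPC libraries held it at 3.54, 3.36 and 3.63 CPM in WT, at 1.29, 1.74 and 1.47 in dCD and at 9.34, 9.45 and 9.84 in MLL2dTAG. The genotypes did not overlap at either stage, with dCD lowest and MLL2dTAG highest. In dCD Hnf4a fell by 1.61 in ESC (SE 0.15, adjusted p = 3.04e-11) and by 1.22 in NPC (SE 0.15, adjusted p = 1.91e-08). In MLL2dTAG it was higher by 0.37 in ESC (SE 0.12, adjusted p = 0.0076) and by 1.44 in NPC (SE 0.12, adjusted p = 6.06e-13).

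The endocytic genes Dab2 and Cubn were lower in dCD at both stages and higher in MLL2dTAG in NPC. DAB2 is a clathrin adaptor, and cubilin is a large receptor without a membrane span that takes up vitamin B12 complexes and other ligands with amnionless and megalin (Lrp2). Dab2 stood at 44.9, 45.7 and 45.0 CPM in WT ESC, at 31.3, 35.6 and 29.4 in dCD ESC and at 42.6, 42.8 and 42.9 in MLL2dTAG ESC. In NPC it stood at 207, 206 and 199 CPM in WT, at 108, 118 and 115 in dCD and at 292, 294 and 303 in MLL2dTAG. The genotypes did not overlap at either stage, though in ESC WT and MLL2dTAG lay within a few CPM of each other. Dab2 fell in dCD by 0.50 in ESC (SE 0.053, adjusted p = 7.12e-10) and by 0.85 in NPC (SE 0.041, adjusted p = 6.06e-19). In MLL2dTAG its change in ESC was −0.08 (SE 0.049, adjusted p = 0.161), called only with upper quartile scaling among the alternatives run (−0.14, adjusted p = 0.0232), and it was higher by 0.54 in NPC (SE 0.040, adjusted p = 3.02e-14).

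Cubn stood at 56.3, 63.6 and 60.8 CPM in WT ESC, at 24.8, 25.3 and 21.6 in dCD ESC and at 64.6, 63.7 and 67.5 in MLL2dTAG ESC. The NPC libraries held it at 63.6, 61.8 and 63.3 CPM in WT, at 34.7, 37.5 and 38.4 in dCD and at 176, 176 and 187 in MLL2dTAG. The dCD libraries were lowest at both stages, and in NPC the MLL2dTAG libraries stood far above the others. In dCD Cubn fell by 1.34 in ESC (SE 0.057, adjusted p = 8.7e-20) and by 0.77 in NPC (SE 0.051, adjusted p = 2.74e-15). In MLL2dTAG its change in ESC was 0.11 (SE 0.050, adjusted p = 0.0549), and in NPC it was higher by 1.52 (SE 0.047, adjusted p = 4.16e-25), which is 2.86-fold. The ESC change was called with RLE scaling (adjusted p = 0.0317), without a filter (adjusted p = 0.00365), by DESeq2 (adjusted p = 0.0312) or without ESC WT replicate 2 (adjusted p = 0.0102). An overlapping transcript on the opposite strand, Gm13270, held 397 counts beside 44423 of Cubn.

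All 5 tested partners of cubilin were called higher in NPC MLL2dTAG, against 33.3% of all genes tested, with a median log2 change of 0.60 beside 0.03 over all genes. Amn, which encodes amnionless, went from 0.193 to 1.77 CPM (log2 change 3.19, SE 0.40, adjusted p = 1.23e-08). Lrp2 went from 142 to 215 CPM (0.60, SE 0.056, adjusted p = 1.84e-11), and Lrpap1, the megalin chaperone gene, from 102 to 358 CPM (1.81, SE 0.042, adjusted p = 1.39e-28). In NPC dCD 2 of the 5 rose, against 26.7%, and 2 fell, against 26.8%, among the latter Lrp2 (−0.15, SE 0.057, adjusted p = 0.0278). Amn was not called there (−0.38, SE 0.62, adjusted p = 0.642). The chloride exchanger gene Clcn5 had the largest called change of the list in NPC dCD, a rise of 0.58 (SE 0.042, adjusted p = 4.3e-14).

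Afp was close to the limit of detection in ESC, low in NPC WT and dCD, and highest in NPC MLL2dTAG. Its counts were 4, 0 and 2 in the WT ESC libraries, 2, 0 and 0 in those of dCD and 0, 2 and 2 in those of MLL2dTAG. In NPC they were 22, 32 and 36 in WT, 22, 16 and 18 in dCD and 186, 190 and 180 in MLL2dTAG, or 0.696, 0.852 and 1.01 CPM, 0.675, 0.442 and 0.528 CPM, and 5.52, 4.2 and 4.70 CPM. The NPC genotypes did not overlap, and the ESC genotypes did. In NPC MLL2dTAG Afp was higher than in WT by 2.48 (SE 0.27, adjusted p = 5.39e-10), which is 5.58-fold and was the largest fold of the 9 genes there. In NPC dCD its change was −0.65 (SE 0.34, adjusted p = 0.113). In ESC the count ratio was 0.351 for dCD against WT (exact 95% interval 0.0347 to 1.96) and 0.534 for MLL2dTAG against WT (0.111 to 2.25). A difference in ESC was thus not detectable at this depth. From ESC to NPC the count ratio was 11.2 in WT (4.95 to 31.3), 20.2 in dCD (5.35 to 171) and 116 in MLL2dTAG (45 to 427), where both counts of ESC dCD came from replicate 1. Of the ESC WT counts, 4 of 6 came from replicate 1, and the fitted log2 change in WT, 3.40, was 4.52 without that library and 2.73 without ESC WT replicate 2. These intervals cover counting error only, since reads are not independent molecules. All 11 Afp counts from 1 to 100 were even, so both mates of a read pair may have been counted, and the intervals would then be too narrow for counting error as well. Albumin, whose gene lies in the same cluster, went in NPC from 0.202 CPM in WT to 0.801 in MLL2dTAG (log2 change 1.98, SE 0.51, adjusted p = 0.00107), and Afm of the same cluster did not pass the filter. The genes of the Afp repressors Zhx2 and Zbtb20 were both called lower in NPC MLL2dTAG, with log2 changes of −0.47 (SE 0.061, adjusted p = 2.81e-08) and −0.39 (SE 0.068, adjusted p = 6.73e-06). They were also lower in NPC dCD, with changes of −0.32 (SE 0.061, adjusted p = 3.89e-05) and −0.40 (SE 0.069, adjusted p = 5.59e-06).

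**Figure D2:**
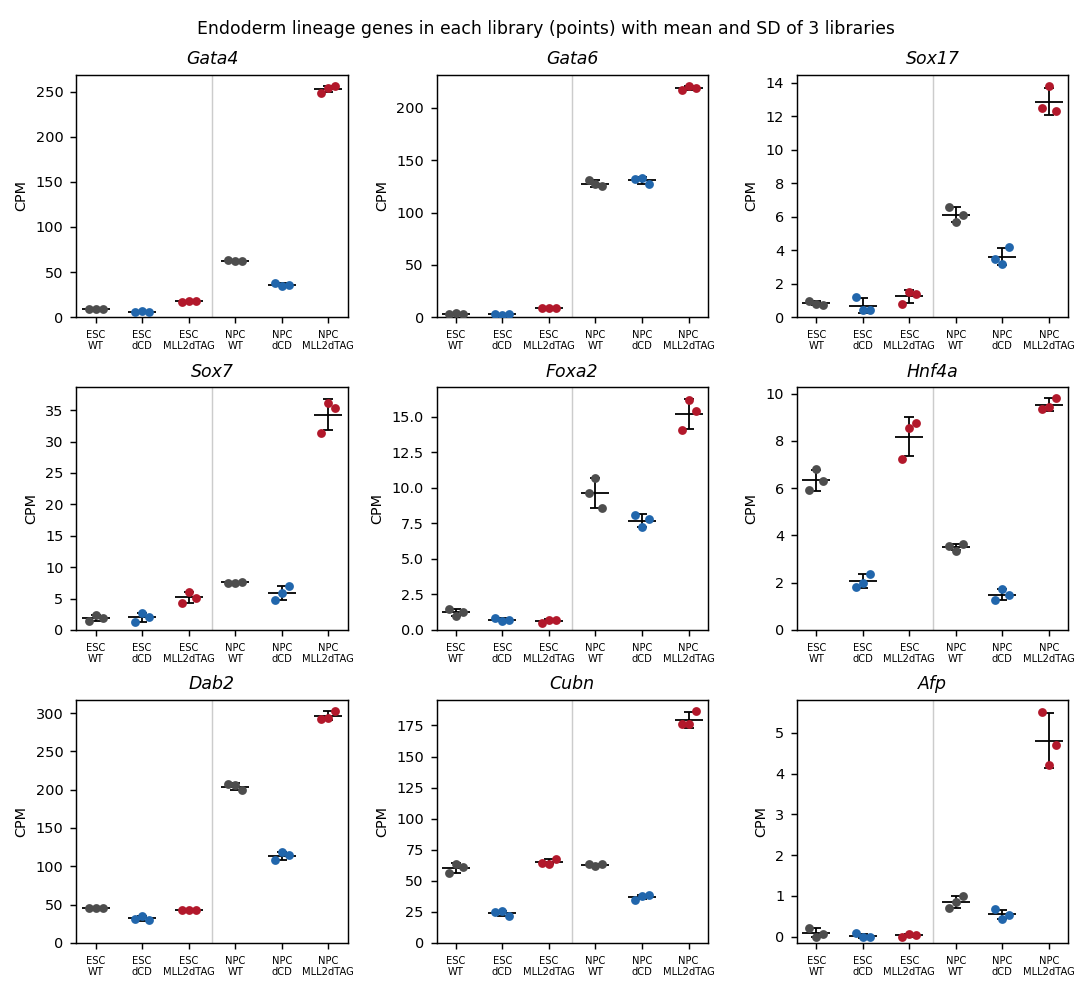
Level in CPM (linear axis, a scale of its own per gene) of each of the 9 genes in the 18 libraries; points are libraries, horizontal marks the mean and bars the SD of 3, grey for WT, blue for dCD and red for MLL2dTAG. In NPC the MLL2dTAG libraries were the highest for every one of the 9 genes, as for Gata4 at 249 to 256 CPM against 62.1 to 63.4 in WT. How many of all genes separated in this way was not counted, and 33.3% of all genes tested were called higher in NPC MLL2dTAG than in NPC WT.

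Counted over the 9 genes, dCD held lower levels. In ESC 5 of 9 were called lower in dCD than in WT (Gata4, Foxa2, Hnf4a, Dab2 and Cubn), against 22.6% of all genes tested, and 0 higher, against 25.7%. Their median log2 change was −0.59, beside 0.02 over all genes. In NPC 7 of 9 were called lower (all but Gata6 and Afp), against 26.8%, and 0 higher, against 26.7%, with a median of −0.76 beside −0.02. Leaving out 1 library at a time gave 4 to 6 members called in ESC and 5 to 7 in NPC. MLL2dTAG is compared with the same WT libraries, so its values are set beside those of dCD without a measure of likeness. In ESC 4 of 9 were called higher in MLL2dTAG than in WT (Gata4, Gata6, Sox7 and Hnf4a), against 28.7%, and Foxa2 alone lower, against 28.2%, with a median of 0.37 beside 0.00 over all genes. In NPC all 9 were called higher, against 33.3%, and 0 lower, against 28.4%. At least 2-fold higher were 6 of the 9 (Gata4, Sox17, Sox7, Hnf4a, Cubn and Afp), against 7.71%, and the median was 1.44 beside 0.03. All 9 were also called in NPC MLL2dTAG under every alternative run. In these bulk libraries more cells of a type and more RNA per cell cannot be told apart.

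**Figure D3:**
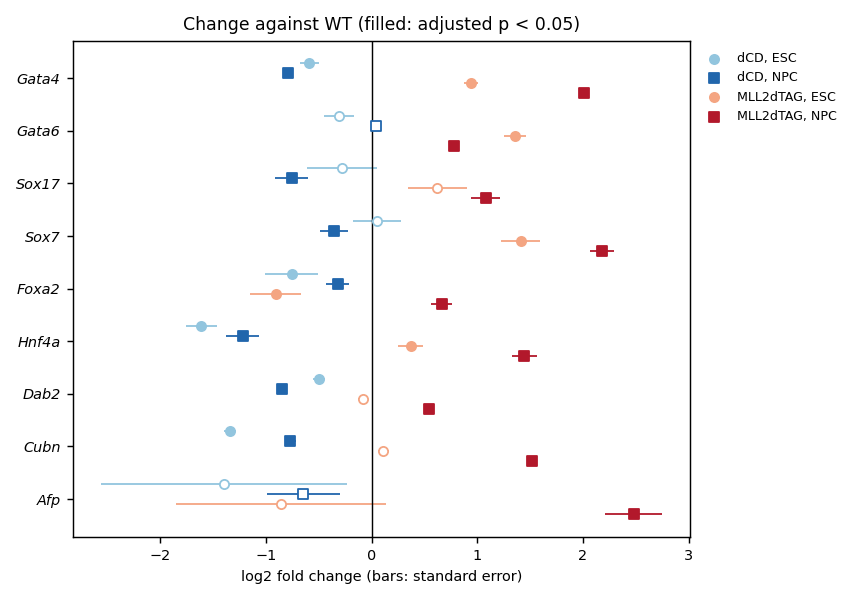
Log2 fold change against WT of the 9 genes in dCD (blue) and MLL2dTAG (red), in ESC (light circles) and NPC (dark squares), with the SE as bars; filled points passed an adjusted p of 0.05. All MLL2dTAG points in NPC are filled and right of 0, from Dab2 at 0.54 to Afp at 2.48, and the called dCD points lie left of 0.

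The change between the edited lines is measured between the dCD and MLL2dTAG libraries, and the WT libraries enter it through the filter, the scaling and the common estimate of the spread. In ESC 7 of 9 were called lower in dCD than in MLL2dTAG (all but Foxa2 and Afp), against 23.4% of all genes, and 0 higher, against 23.7%. The difference was widest for Hnf4a (−1.98, SE 0.14, adjusted p = 3.44e-14). Sox17 was lower by −0.90 (SE 0.29, adjusted p = 0.0111) although its libraries overlapped. Without ESC dCD replicate 1, the highest dCD library, it was −1.54 (adjusted p = 0.00021). Its call was lost when any of 4 other libraries was left out, ESC dCD replicate 2 or 3 (adjusted p = 0.0919 and 0.101) and ESC MLL2dTAG replicate 2 or 3 (adjusted p = 0.0569 and 0.0557). In NPC all 9 were called lower in dCD, against 31.6%, and 0 higher, against 24.3%. At least 2-fold lower were 7 (all but Gata6 and Foxa2), against 6.32%. Gata4 differed 7-fold (log2 −2.81, SE 0.045, adjusted p = 1.92e-33), Hnf4a 6.33-fold (−2.66, SE 0.14, adjusted p = 1.59e-18) and Gata6 1.68-fold (−0.74, SE 0.044, adjusted p = 7.62e-17). Foxa2 lay just outside 2-fold, at 1.98-fold (−0.99, SE 0.10, adjusted p = 2.75e-10).

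From ESC to NPC most of the genes rose in all 3 genotypes. In WT 7 of 9 were called higher in NPC, against 39.1% of all genes, and each of these was at least 2-fold higher, against 22.5%. Hnf4a alone was called lower, against 40.4%, and Cubn was not called (0.06, SE 0.050, adjusted p = 0.296), though it was called higher without a filter (0.16, adjusted p = 0.0047). Gata6 rose most in WT, 38.1-fold (log2 change 5.25, SE 0.074, adjusted p = 2.21e-36). In dCD 8 were called higher, against 38.7%, and Hnf4a lower, against 39.0%. In MLL2dTAG 8 were called higher, against 39.9%, and 0 lower, against 38.3%. Hnf4a changed by −0.86 in WT (SE 0.13, adjusted p = 2.39e-07), −0.47 in dCD (SE 0.18, adjusted p = 0.0176) and 0.22 in MLL2dTAG (SE 0.11, adjusted p = 0.0701). The dCD call for Hnf4a was lost without a filter (adjusted p = 0.152), with only the groups compared (adjusted p = 0.0606), without ESC dCD replicate 3 (adjusted p = 0.125) or without NPC dCD replicate 1 (adjusted p = 0.0818). In MLL2dTAG Hnf4a was called higher with halved counts (adjusted p = 0.0437), with only the groups compared (adjusted p = 0.0426) or without ESC MLL2dTAG replicate 3 (adjusted p = 0.0419). Cubn rose by 0.63 in dCD (SE 0.059, adjusted p = 5.89e-12) and by 1.46 in MLL2dTAG (SE 0.047, adjusted p = 1.55e-25).

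**Figure D4:**
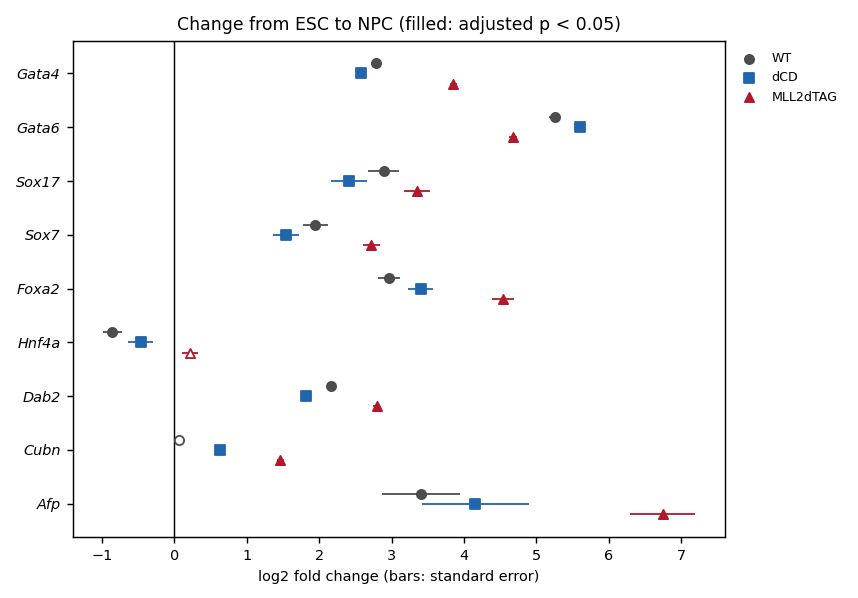
Log2 fold change from ESC to NPC of the 9 genes in WT (grey circles), dCD (blue squares) and MLL2dTAG (red triangles), with the SE as bars; filled points passed an adjusted p of 0.05. Gata6 lies at 5.25 in WT, right of all other WT points, and Hnf4a lies at −0.86 in WT, left of 0.

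Whether the genotype's effect differed between stages was tested as an interaction, the change against WT in NPC minus that in ESC. For dCD Cubn alone was called higher in the fit over all libraries (0.57, SE 0.077, adjusted p = 1.4e-07), against 20.0% of all genes, and Dab2 alone lower (−0.35, SE 0.067, adjusted p = 5.07e-05), against 22.9%. The loss of Cubn was thus smaller in NPC than in ESC, and that of Dab2 larger. Gata6 (0.35, adjusted p = 0.0578) was called higher by DESeq2 (adjusted p = 0.0427) and without ESC WT replicate 1 (adjusted p = 0.0444), ESC WT replicate 3 (adjusted p = 0.0104) or ESC dCD replicate 3 (adjusted p = 0.03). Gata4 was called lower without NPC dCD replicate 1 (−0.25, adjusted p = 0.0446), and Sox7 without ESC dCD replicate 1 (−0.64, adjusted p = 0.0499). For MLL2dTAG 7 of 9 were called higher, against 26.4%, and Gata6 alone lower, against 22.6%. The gain of Gata6 was smaller in NPC than in ESC (−0.58, SE 0.12, adjusted p = 8.33e-05), while that of Gata4 was larger (1.07, SE 0.082, adjusted p = 2.12e-13). The others called higher were Foxa2 (1.57, SE 0.26, adjusted p = 4.2e-06), Cubn (1.40, SE 0.068, adjusted p = 9.81e-19), Hnf4a (1.07, SE 0.17, adjusted p = 1.63e-06), Dab2 (0.62, SE 0.064, adjusted p = 2.27e-10), Sox7 (0.77, SE 0.23, adjusted p = 0.00464) and Afp (3.34, SE 1.1, adjusted p = 0.0119). Sox7 lost its call without ESC WT replicate 2 (0.60, adjusted p = 0.0522) and Afp without ESC WT replicate 1 (2.23, adjusted p = 0.256). Sox17 was not called (0.46, SE 0.32, adjusted p = 0.25).

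Other endoderm genes were read from the same fit. Of 8 tested visceral endoderm products, 6 were called higher in NPC MLL2dTAG, against 33.3% of all genes, and 1 lower, against 28.4%, with a median log2 change of 1.74. Transthyretin (Ttr) went from 2.2 to 12.8 CPM (2.54, SE 0.18, adjusted p = 1.62e-14), Apoa1 from 3.64 to 11.4 CPM (1.64, SE 0.16, adjusted p = 2.33e-11), and Ihh, the hedgehog ligand of visceral endoderm, from 5.22 to 18.7 CPM (1.84, SE 0.13, adjusted p = 1.91e-14). Apoa4 had the largest called change, 2.57 (SE 0.37, adjusted p = 1.59e-07). The retinol carrier gene Rbp4 went the other way, from 24.7 to 6.85 CPM (−1.85, SE 0.11, adjusted p = 9.14e-17). In ESC MLL2dTAG 0 of the 8 were called higher, against 28.7%, and 3 lower (Apoa1, Apob and Rbp4), against 28.2%, with a median of −1.17. That median rests in part on genes near the floor in ESC. Over the 3 libraries of a group, Alb held 2 counts in ESC WT and 0 in ESC MLL2dTAG, and Apoa4 held 7 and 3. In ESC dCD 0 were called higher, against 25.7%, and 3 lower, against 22.6%. In NPC dCD 6 of the 8 were called lower, against 26.8%, and 0 higher, against 26.7% (median −0.88), led by Spink1 (−1.89, SE 0.26, adjusted p = 1.02e-07). Apoc2 and Trf did not pass the filter.

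All 10 genes of the primitive and parietal endoderm list were called higher in NPC MLL2dTAG (median 1.11), against 33.3% of all genes, and 7 of them at least 2-fold, against 7.71%. Lama1, a laminin chain of basement membrane, went from 285 to 1150 CPM (2.01, SE 0.046, adjusted p = 1.02e-28), and Pdgfra, a receptor of primitive endoderm, from 62.8 to 160 CPM (1.35, SE 0.040, adjusted p = 1.49e-25). In ESC MLL2dTAG 9 of the 10 were called higher, against 28.7%, and Lamb1 lower (−0.43, SE 0.036, adjusted p = 9.58e-13), against 28.2%. In ESC dCD 4 were called higher, against 25.7%, and 3 lower, against 22.6%. In NPC dCD 4 were called higher, against 26.7%, and 1 lower, against 26.8% (median 0.06). The largest called change there was that of the basement membrane gene Nid1 (2.40, SE 0.037, adjusted p = 1.13e-33). Nid1 rose in NPC MLL2dTAG as well, from 55.7 to 159 CPM. Nid1 is also made by many other cells, a limit that holds for both lines and is not particular to this gene. In ESC WT, Lamc1 (526 CPM), Lamb1 (303), Sparc (265) and Col4a1 (196) were already high, while Pdgfra (10.9), Thbd (8.81) and Plat (7.84) were lower. Of the 10 genes, 2 were called higher in NPC dCD than in NPC MLL2dTAG, against 24.3%, and 8 lower, against 31.6%. Those 2 were Nid1 and Thbd (6.31 CPM in dCD, 3.15 in MLL2dTAG). The part of other cells in the list's sums was not tested. The 10 genes summed to 4040 to 4280 CPM in NPC WT, 4790 to 4950 in NPC dCD and 9060 to 9190 in NPC MLL2dTAG. The definitive endoderm and gut tube list was mixed, and its counts, like those of the GATA and SOX relatives, are to be read against the same shares of all genes, 26.7% higher and 26.8% lower in NPC dCD and 33.3% higher and 28.4% lower in NPC MLL2dTAG. In NPC dCD 4 of 9 were called higher and 2 lower (median −0.26), with Gsc rising from 0.245 to 1.94 CPM (2.95, SE 0.36, adjusted p = 1.02e-08). In NPC MLL2dTAG 3 were called higher and 1 lower (median −0.13), led by Eomes, from 0.175 to 0.936 CPM (2.40, SE 0.37, adjusted p = 6.96e-07). Of the 6 GATA and SOX relatives and cofactors, 2 were called higher and 2 lower in NPC dCD, and 3 higher and 1 lower in NPC MLL2dTAG.

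**Figure D5:**
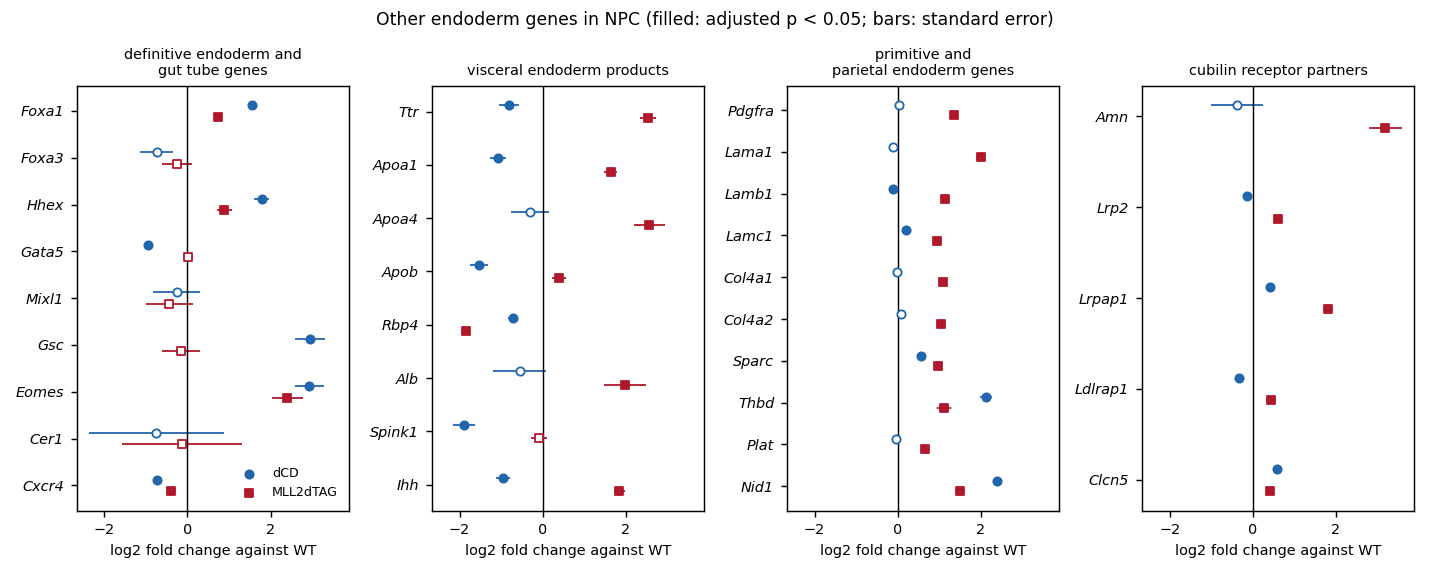
Log2 fold change against WT in NPC of the tested genes of 4 other endoderm lists, for dCD (blue circles) and MLL2dTAG (red squares), with the SE as bars; filled points passed an adjusted p of 0.05. All red squares of the primitive and parietal list lie right of 0 and are filled, and Rbp4, at −1.85 in MLL2dTAG, is the far left red square of the visceral products.

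Markers of other cell types that express some of these genes were counted in NPC as well, where 26.7% of all genes were called higher and 26.8% lower in dCD, and 33.3% higher and 28.4% lower in MLL2dTAG. The lists are short, so that few genes decide a share, and several, among them the cardiac and trophectoderm ones in dCD, had counts near these shares. The 7 endothelial markers summed to 62.3 to 64.4 CPM in NPC WT, 45.2 to 48.6 in dCD and 217 to 223 in MLL2dTAG, where 4 were called higher and 0 lower. In dCD 0 were higher and 1, Kdr, was lower. Most of that sum was Kdr, an early mesoderm and endothelial receptor, at 59.5 CPM in WT and 209 in MLL2dTAG. The 8 cardiac mesoderm markers summed to 43.4 to 44.9 CPM in WT, 49.1 to 54.8 in dCD and 72.5 to 77.4 in MLL2dTAG, with 4 higher and 1 lower in MLL2dTAG and 3 higher and 2 lower in dCD. Of 7 notochord and floor plate markers, 4 were tested, and 2 were higher and 1 lower in MLL2dTAG and 1 higher in dCD, with sums of 13.1 to 15.9 CPM in WT, 17.7 to 20.4 in dCD and 17.2 to 21 in MLL2dTAG, and Noto was at 0 in every group. The 6 pluripotency markers summed to 28.6 to 29.9 CPM in WT, 40.6 to 41.3 in dCD and 151 to 152 in MLL2dTAG, with all 6 higher in MLL2dTAG and 1 higher and 1 lower in dCD. Pou5f1 stood at 1.01 CPM in NPC WT and 26.9 in NPC MLL2dTAG. The 6 neural progenitor markers summed to 152 to 156 CPM in WT, 319 to 354 in dCD and 214 to 218 in MLL2dTAG, with 4 higher in each line and 2 lower in MLL2dTAG. Trophectoderm markers, 5 in all, summed to 77.8 to 83.0 CPM in WT, 80.8 to 88.5 in dCD and 58.9 to 61.5 in MLL2dTAG, and 2 were higher in each line, with 1 lower in dCD and 2 in MLL2dTAG. The 6 mesenchymal markers summed to 92.7 to 99.7 CPM in WT, 89.7 to 96.4 in dCD and 87.6 to 94.2 in MLL2dTAG, with 2 higher and 3 lower in dCD and 3 higher and 2 lower in MLL2dTAG. Apart from Noto no marker of these lists was at 0 in a whole NPC group, and the part of such cells in the results above was not tested.

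Across the 18 libraries, which are 6 groups of 3 and share stage and genotype, the log2 CPM of most members ran together. Pearson's r over the 36 pairs of members ranged from −0.05 (Foxa2 and Hnf4a) to 0.97 (Sox17 and Dab2), and was 0.92 for Gata4 with Gata6 and 0.88 for Sox17 with Sox7. Hnf4a stood apart, with its highest r, 0.81, to Cubn. Among 11804 other genes that averaged at least 5 CPM (11805 for Sox17 and Afp), the 3 most like each member were named. Those of Gata4 were Mbtps1 (0.99), Sertad2 (0.99) and Ctns (0.99), and those of Gata6 were Dstyk, Tmem164 and Snrk (each 0.99). Those of Sox17 were Creg1 (0.98), Mbtps1 (0.97) and Plekhg3 (0.97), and those of Sox7 were Lama1 (0.97), Fam8a1 (0.97) and Zfp180 (0.97). Those of Foxa2 were Tmem55a (0.99), the retinoic acid hydroxylase gene Cyp26a1 (0.99) and Nkd1 (0.99), and those of Hnf4a were Rffl (0.98), Ccdc6 (0.96) and Derl3 (0.94). Those of Dab2 were Syne2 (0.996), Reck (0.99) and Abi1 (0.99), those of Cubn were B4galnt2 (0.96), Scube2 (0.94) and Hs3st3b1 (0.93), and those of Afp were Cdc16, Yipf6 and Vamp8 (each 0.95). Lama1 was the one of these on a fixed endoderm list, with means of 129 CPM (WT), 91.4 (dCD) and 285 (MLL2dTAG) in ESC, and of 285, 266 and 1150 CPM for the same genotypes in NPC.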

How the data were processed

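The deposited table gives unnormalised read counts for each gene symbol, made by the authors with HTSeq per the submitters' processing notes, from TruSeq Stranded mRNA libraries per the labels' protocols. The sources used here do not give the aligner, genome build or strand setting. Columns were assigned to samples by name, and 18 columns, whose names are shared by several columns or match no label, were not used. Low counts were often even: over all genes 60.8% to 66.5% of counts from 1 to 10 in a library, and, of the counts from 1 to 100, 9 of 9 for Sox17 and Foxa2, 11 of 11 for Afp, 5 of 6 for Sox7, 4 of 6 for Hnf4a and 2 of 5 for Gata6. Both mates of a pair may have been counted, so halved counts were run as an alternative.

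The tests were run with edgeR 4.0.16 (R 4.3.3). Genes passing filterByExpr by group (20511 of 37417 with a count) were scaled with TMM and fitted over 18 libraries by quasi-likelihood, a mean for each group (12 residual degrees of freedom, common dispersion 0.00161). The two-sided F test with Benjamini-Hochberg adjustment over all these genes was called at 0.05. SE was taken from the change and F. The self-test, on counts simulated for MLL2dTAG against WT in NPC, was passed. Its limit on recovery left out genes of low level, and its limit on false calls was looser than 0.05. It thus does not cover the low counts of Afp, Sox17 and Foxa2 in ESC. DESeq2 1.42.0, other scalings, no filter, only the groups compared, a replicate block and leaving out each library were alternatives. Exon lengths are from GENCODE M21. Named were the 9 members, genes of fixed lists by count with the largest called change or a pairing with a member, and the 3 genes most like each member. Other list genes were chosen after their values were seen. The members and lists were chosen with earlier results of these data known. Some genes of the definitive endoderm and gut tube list are not reported here and were left out of its counts.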

Additional observations from a re-analysis of the deposited data

Results flagged for a closer look

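For 8 of the 9 genes the change of MLL2dTAG against WT differed between NPC and ESC in a test of the difference itself (log2 change in NPC minus that in ESC, edgeR quasi-likelihood test). The difference was 1.07 for Gata4, 0.77 for Sox7, 1.57 for Foxa2, 1.07 for Hnf4a, 0.62 for Dab2, 1.40 for Cubn, 3.34 for Afp and −0.58 for Gata6. Foxa2 is the one whose called changes had opposite directions at the stages, and Afp rests on 6 counts in ESC WT and 4 in ESC MLL2dTAG. For dCD the difference was 0.57 for Cubn and −0.35 for Dab2, where 20.0% of all genes tested were called higher and 22.9% lower. For MLL2dTAG 26.4% of all genes were called higher and 22.6% lower, beside 7 and 1 of the 9 genes. The call was lost for Sox7 without ESC WT replicate 2 (0.60, adjusted p = 0.0522) and for Afp without ESC WT replicate 1 (2.23, adjusted p = 0.256). No explanation was tested.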

How the results depend on the processing

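The counts of members called stayed within 1.5 times under every alternative run. Of 99 changes of a member in a comparison, 77 kept their direction and their side of the threshold in all of 12 to 19 alternatives each. Directions turned only for changes that were not called. Leaving out each library in turn, they ranged from −0.18 (without ESC dCD replicate 2; −0.08 when replicate 1 of ESC WT was left out) to 0.28 for Sox7 in ESC dCD, from −1.53 to 0.26 (without ESC WT replicate 1) for Afp in ESC MLL2dTAG, from −3.54 to 0.04 (without ESC dCD replicate 3) for Afp in ESC dCD against MLL2dTAG, and, for the stage differences of dCD, from −0.72 to 0.16 (without ESC dCD replicate 1) for Sox17 and from −0.36 (without ESC WT replicate 1) to 3.75 for Afp. Upper quartile scaling gave −0.026 for Cubn from ESC to NPC in WT. The cause was not tested. With the replicate number as a block, 5, 5, 7 and 9 members were called for dCD and MLL2dTAG against WT in ESC and then in NPC, as without it, and no count moved by over 1.5 times. Same-numbered libraries of different groups did not deviate together (r from −0.03 to 0.02 over 45 pairs), and 6 of 18 libraries correlated best with their own number. Upper quartile scaling moved the median of all genes by −0.11 from ESC to NPC in MLL2dTAG, and the share of higher among called genes from 43.5% to 54.8% for dCD against MLL2dTAG in NPC. Leaving out the filter moved that median by 0.10 in WT, and that share from 53.9% to 43.5% for the stage difference of MLL2dTAG. Depth limits Afp, at 0 to 4 counts per ESC library, and Sox17 and Foxa2 in ESC, at 10 to 54.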

Other observations

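Gata4 and Sox7 lie near each other in RefSeq, with 6 protein-coding genes between them (Blk, Fam167a, Tdh, Mtmr9, Xkr6 and Pinx1). This interval was chosen after values of Gata4 and Sox7 were seen. In NPC MLL2dTAG all 6 were called higher than in WT, against 33.3% of all genes tested (edgeR quasi-likelihood test, Benjamini-Hochberg adjustment), from Mtmr9 (log2 change 0.39, SE 0.050, adjusted p = 2.37e-08) to Blk (3.08, SE 0.63, adjusted p = 0.000106). Tdh, the threonine dehydrogenase gene of embryonic stem cells, changed by 2.45 (SE 0.054, adjusted p = 4e-29), beside 2.01 for Gata4 and 2.18 for Sox7. In NPC dCD 3 of the 6 were called higher (Mtmr9, Xkr6 and Pinx1), against 26.7%, and 3 lower (Blk, Fam167a and Tdh), against 26.8%. The changes of Blk were the least certain, with the widest SE of the 6 in both lines, 0.63 in MLL2dTAG and 1.53 in dCD (log2 change −4.35). Whether the position has a part in this was not tested.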
